A study of Mus musculus with 48 samples.

Results

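Zfp genes encode zinc finger proteins, and 137 of the 374 gene rows named Zfp and a number were expressed well enough to be described here. They were chosen by their level: a mean of at least 100 counts over 8 nascent RNA libraries, with Zfp42 and Zfp296 left out by name. The whole table had 55376 gene rows, of which 8801 reached that mean and were tested. The members' mean counts ran between 100.125 and 1054, with a median of 167.375. Zfp808, Zfp386, Zfp940 and Zfp239 lay just inside the limit at means of 100.125 to 101.125, and Zfp942, Zfp606, Zfp365 and Zfp428 just outside at 99.375, 99.125, 97.75 and 97.0. The libraries labelled Chd4 shRNA carried 3 members over the limit, Zfp386, Zfp940 and Zfp26, whose other 6 libraries averaged 99.8, 98.5 and 93.0 counts, and the other 134 kept a mean of at least 100 without them.

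The study set BRG1 inhibition and Chd4 knockdown beside their controls in TCF2.2 cells, a line of mouse embryonic stem cells derived and kept in serum-free 2i medium. The first group received 10 µM BRM014, an inhibitor of the ATPases BRG1 and BRM of the SWI/SNF chromatin remodelling complexes, for 3 h, and its control received DMSO for 3 h. The other group was transduced with a lentivirus carrying an shRNA against Chd4, the ATPase of the NuRD complex, and its control with a scrambled shRNA, both followed by 24 h in medium with 1.5 µg/mL puromycin. All cells were given 4-thiouridine at 500 µM and taken after 5 min, so the RNA pulled down and sequenced was that made in those minutes. Each group had 2 libraries, which the series text calls biological duplicates, and p-values cover only the spread between them. No genetic change of the line itself is given in the labels, and all libraries come from this 1 line.

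Most zinc finger proteins of this kind bind DNA through tandem C2H2 fingers. In mammals many of them also carry a KRAB domain, through which they recruit TRIM28 and the histone methyltransferase SETDB1 to silence retroelements in embryonic stem cells. Their genes often lie in tandem clusters that arose by duplication. Others in the group act without KRAB, as partners of NuRD, G9a or CoREST, or on RNA and ribosomes. KRAB carriers were not assigned here.

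Among the members, the chromosome 4 cluster was the largest, and the promoters of 9 of its 16 members could be compared. RefSeq promoter windows of 300 bases (250 before the start and 50 from it, GRCm38.p6, the same build as mm10) matched 108 members by symbol, and 95 of these lay within 1000 bases of the start in the deposited table. The 9 windows of the chromosome 4 cluster were 70.0% to 96.7% identical over their 36 pairs, with a median of 84.2%. The 73 windows of members outside clusters were 46.7% to 70.0% identical over 2628 pairs, with a median of 58.0%. The windows of Zfp600 (plus strand, chr4:146156577-146156876), Zfp979 (minus strand, chr4:147642459-147642758) and Zfp980 (plus strand, chr4:145670447-145670746) are printed 5′ to 3′ as examples of genes that rose with the Chd4 shRNA. Capitals mark runs of at least 20 bases held by all 3 windows, 145 bases in each. The windows of Zfp988, Zfp985, Zfp534 and Zfp984, which also rose, were 73.7% to 87.3% identical to the 3 printed ones. Those of Zfp982 and Zfp987, which were not called, were 85.0% to 89.7% identical to them. Whether the shared bases bear on the rise was not tested.
Zfp600: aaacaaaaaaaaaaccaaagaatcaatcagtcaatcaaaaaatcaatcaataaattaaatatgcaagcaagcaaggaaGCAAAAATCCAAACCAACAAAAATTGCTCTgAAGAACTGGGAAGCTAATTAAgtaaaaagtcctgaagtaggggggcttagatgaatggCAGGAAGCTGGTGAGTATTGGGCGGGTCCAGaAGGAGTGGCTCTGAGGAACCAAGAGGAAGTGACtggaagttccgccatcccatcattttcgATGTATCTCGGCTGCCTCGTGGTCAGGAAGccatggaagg
Zfp979: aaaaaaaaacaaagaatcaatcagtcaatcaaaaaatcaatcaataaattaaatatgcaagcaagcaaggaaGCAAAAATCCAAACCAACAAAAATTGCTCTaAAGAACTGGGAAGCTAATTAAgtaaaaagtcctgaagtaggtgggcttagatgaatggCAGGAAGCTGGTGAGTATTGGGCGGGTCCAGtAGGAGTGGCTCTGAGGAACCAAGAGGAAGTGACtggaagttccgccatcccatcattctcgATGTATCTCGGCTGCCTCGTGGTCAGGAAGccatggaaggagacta
Zfp980: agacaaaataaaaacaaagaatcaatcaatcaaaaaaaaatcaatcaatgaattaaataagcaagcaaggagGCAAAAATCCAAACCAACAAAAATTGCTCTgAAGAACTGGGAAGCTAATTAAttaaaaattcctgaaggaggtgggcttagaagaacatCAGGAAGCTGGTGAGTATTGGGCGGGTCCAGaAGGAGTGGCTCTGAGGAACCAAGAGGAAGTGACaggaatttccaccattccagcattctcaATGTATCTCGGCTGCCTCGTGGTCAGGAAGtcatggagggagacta

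Zfp827, on chromosome 8 outside any cluster of members, was called in both comparisons, in opposite directions and on both sets of counts, so its window (plus strand, chr8:79028187-79028486, 5′ to 3′) is printed as well. The capitals mark TATAAA, read from the other strand.
Zfp827: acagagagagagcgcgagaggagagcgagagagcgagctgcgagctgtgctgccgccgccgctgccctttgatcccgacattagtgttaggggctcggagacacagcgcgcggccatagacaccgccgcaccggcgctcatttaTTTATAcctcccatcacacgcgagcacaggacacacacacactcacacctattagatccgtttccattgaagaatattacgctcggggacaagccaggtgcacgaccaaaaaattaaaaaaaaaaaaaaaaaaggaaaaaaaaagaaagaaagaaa

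Short motifs were then searched on both strands of the 95 members' windows, of the 5658 windows of tested genes and of all 32851 windows. GGGCGG, the letters bound by SP and KLF factors, lies inside a shared run of the printed windows and was found in 7 of the 9 windows of the chromosome 4 cluster. Over all members it was found in 50.5%, against 69.8% of the tested genes and 35.7% of all windows. GCGCATGCG of NRF1 was in 3.16% of members, 4.88% of tested genes and 1.75% of all windows. CCGGAAG of the ETS family was in 21.1%, 23.8% and 8.86%, CACGTG of MYC in 6.32%, 11.5% and 7.15%, TGACGTCA of the CREB family in 3.16%, 3.92% and 1.79%, and TATAAA in 6.32%, 5.97% and 13.6%. ACTACAATT, part of the site of ZFP143, itself a member, was in the windows of Zfp692, Zfp180 and Zfp1, which is 3.16% of members against 0.848% of tested genes and 0.393% of all windows. The windows of members held a median of 15 CG pairs, against 23 in those of all tested genes. The shares of ACTACAATT, TGACGTCA and GCGCATGCG rest on 3 member windows each.

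Levels per length differed widely between members. As counts scaled to library size (CPM) per kb of exon, averaged over the libraries, they ran between 0.793 in Zfp26 and 46.6 in Zfp993, with a median of 3.29. The 5 highest were Zfp993, Zfp991, Zfp978, Zfp992 and Zfp57, and 4 of these belong to the chromosome 4 cluster. Zfp993 stood alone at 58.9 CPM per kb with BRM014 and 46.5 with DMSO, and at 38.7 with the Chd4 shRNA and 42.3 with the scrambled shRNA. Zfp57 reached 16.4 with BRM014 and 18.1 with DMSO, and 14.1 with the Chd4 shRNA and 20.6 with the scrambled shRNA. Zfp991, Zfp978 and Zfp992 lay between 19.1 and 20.4 CPM per kb, and their order changed between groups. At the lower end, Zfp407, Zfp738 and Zfp26 all had under 1 CPM per kb, and these are 15170, 15129 and 14154 bases long in exons. The members' median exonic length was 5598 bases, against 4274 over all tested genes.

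Of the members, 18 overlap another gene row that had at least 0.25 times their counts, 13 of them on the other strand, and whether strand was used in counting is not given. Of those named below, Zfp219, Zfp335, Zfp143, Zfp687, Zfp646, Zfp866 and Zfp950 overlap such a row on the other strand and Zfp984 on its own strand. The overlap of Zfp866, with Atp13a1, is only 16 bases.

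Gene counts totalled 12977098 and 14582377 with BRM014, 17128981 and 16813866 with DMSO, 7461362 and 6982354 in the libraries labelled Chd4 shRNA, and 12026026 and 11298835 in those labelled scrambled shRNA. The 1434 genes of the odour and pheromone receptor families were taken to be silent in these cells. Reads over them gave a background of 1.66 and 2.64 counts per kb with BRM014 and 2.63 and 2.66 with DMSO. It was 6.78 and 7.21 with the Chd4 shRNA, against 1.32 and 1.83 with the scrambled shRNA. Whether the receptor genes themselves rose with the Chd4 shRNA was not tested, and every subtracted value rests on this background. Chd4 itself had 730 and 760 counts with the Chd4 shRNA and 806 and 618 with the scrambled shRNA, and its log2 fold change was 0.59 ± 0.16 (SE, adjusted p = 0.00218 by edgeR's quasi-likelihood test), so its nascent counts do not show the knockdown. The 11 stem cell markers were all expressed and summed to 1954 and 1913 CPM with the Chd4 shRNA and 3139 and 3245 with the scrambled shRNA. The 6 fibroblast genes summed to 403 and 489 counts with the Chd4 shRNA where background alone gave 291 and 310, and to 77 and 103 counts with the scrambled shRNA, where it gave 56.9 and 78.8. The 7 genes of primitive endoderm and germ layers had 253 and 251 counts with the Chd4 shRNA, where background alone gave 247 and 262. With the scrambled shRNA they had 94 and 112 counts, where it gave 48.2 and 66.8. The 7 genes of 2-cell-like cells had 100 and 99 counts with the Chd4 shRNA, where background gave 92.3 and 98.1. With the scrambled shRNA they had 60 and 66 counts, where it gave 18.03 and 24.99. Raw counts of both lists were thus higher with the Chd4 shRNA. They lay near background there, and above it with the scrambled shRNA. No gene of these 3 lists reached a mean of 100 counts. Their part in the results below was not tested.

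The background took up a median of 28.9% of a member's counts in the Chd4 shRNA libraries (range 2.96% to 68.0%), against 6.55% in the scrambled shRNA libraries. It took up 5.66% with BRM014 and 5.98% with DMSO. Each result is therefore given on the deposited counts and again after the background per kb was subtracted from each library. Library sizes were set among genes at least 10-fold above background, so that a fold change is relative to those genes and not an amount per cell. The fold above background was taken on mean counts and mean background over all 8 libraries. By it, 70 members were at least 10-fold above background and 67 were not. In the Chd4 shRNA libraries alone, the background share among these 70 still varied widely, for example 39.1% in Zfp639 and 2.96% in Zfp993.

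BRM014 was compared with DMSO to ask which genes depend on SWI/SNF activity. Few members changed: 7 of 137 were higher and 6 were lower at an adjusted p under 0.05, where 2.02% of all tested genes were higher and 3.61% lower. The members' median log2 fold change was 0.01, against -0.02 over all tested genes. The rises were Zfp773, Zfp788, Zfp68, Zfp367, Zfp930, Zfp397 and Zfp637, and the falls were Zfp407, Zfp827, Zfp704, Zfp775, Zfp866 and Zfp41. With the background subtracted, the first 5 rises and the first 3 falls were still called, where 1.38% of tested genes were higher and 2.64% lower.

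Zfp773 (chr7:7127073-7136755, minus strand) had 14.3 and 13.7 CPM with BRM014, against 6.99 and 9.37 CPM with DMSO. Both BRM014 libraries were above both DMSO libraries, and the log2 fold change was 0.76 ± 0.15 (SE, adjusted p = 0.00156, edgeR quasi-likelihood test; 0.87 ± 0.21 with the background subtracted, adjusted p = 0.0169). Zfp773 was the only one of the 13 calls that held whichever library was left out, on the deposited counts. With the background subtracted, 0 members were higher by edgeR without BRM014 library 1, without BRM014 library 2 or without DMSO library 1. Zfp788 had 9.97 and 11.9 CPM with BRM014 and 7.05 and 6.48 CPM with DMSO, a log2 fold change of 0.70 ± 0.15, and lost its call without BRM014 library 2 (adjusted p = 0.146, edgeR). Zfp68 had 18.6 and 18.4 CPM with BRM014 and 8.90 and 13.1 CPM with DMSO, which is 0.74 ± 0.17 on the log2 scale. Zfp367 had 17.2 CPM in both BRM014 libraries and 9.96 and 12.3 CPM with DMSO, which is 0.63 ± 0.14. In both genes the groups did not overlap, and in both the call was lost without DMSO library 1 (adjusted p = 0.0842 for Zfp68 and 0.059 for Zfp367, edgeR). Zfp930, Zfp397 and Zfp637 were higher by 0.52 to 0.53 on the log2 scale. Each of these 3 lost its call without BRM014 library 2 or DMSO library 1 (adjusted p = 0.109 and 0.129 for Zfp930, 0.164 and 0.115 for Zfp397, 0.506 and 0.211 for Zfp637, edgeR), and Zfp930 and Zfp397 also without BRM014 library 1 (0.135 and 0.0707).

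Zfp827, whose human counterpart brings NuRD to telomeres, fell most together with Zfp407. Zfp827 (chr8:79028437-79193766, plus strand) had 5.42 and 4.40 CPM with BRM014, against 8.16 and 8.41 CPM with DMSO, and the groups stood apart. Its log2 fold change was -0.77 ± 0.18 (SE, adjusted p = 0.00697, edgeR; -0.93 ± 0.22 with the background subtracted). Zfp407 (chr18:84128027-84589725, minus strand) had 6.86 and 5.99 CPM with BRM014 and 11.6 and 10.7 CPM with DMSO, a log2 fold change of -0.80 ± 0.17 (adjusted p = 0.0029, edgeR). Zfp704 had 17.3 and 14.5 CPM with BRM014 and 22.8 and 26.8 CPM with DMSO, a log2 fold change of -0.65 ± 0.16. Leaving out BRM014 library 2 ended all 3 calls (adjusted p = 0.245, 0.102 and 0.293 for Zfp827, Zfp407 and Zfp704, edgeR). Zfp775, Zfp866 and Zfp41 were lower by 0.54 to 0.60 on the log2 scale. Their calls too were lost without BRM014 library 2 (adjusted p = 0.127, 0.365 and 0.207, edgeR), without BRM014 library 1 (0.22, 0.0652 and 0.147) and with the background subtracted. Zfp775 was also lost without DMSO library 1 (0.0742), and Zfp866 and Zfp41 without DMSO library 2 (0.105 and 0.274).

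**Figure D1:**
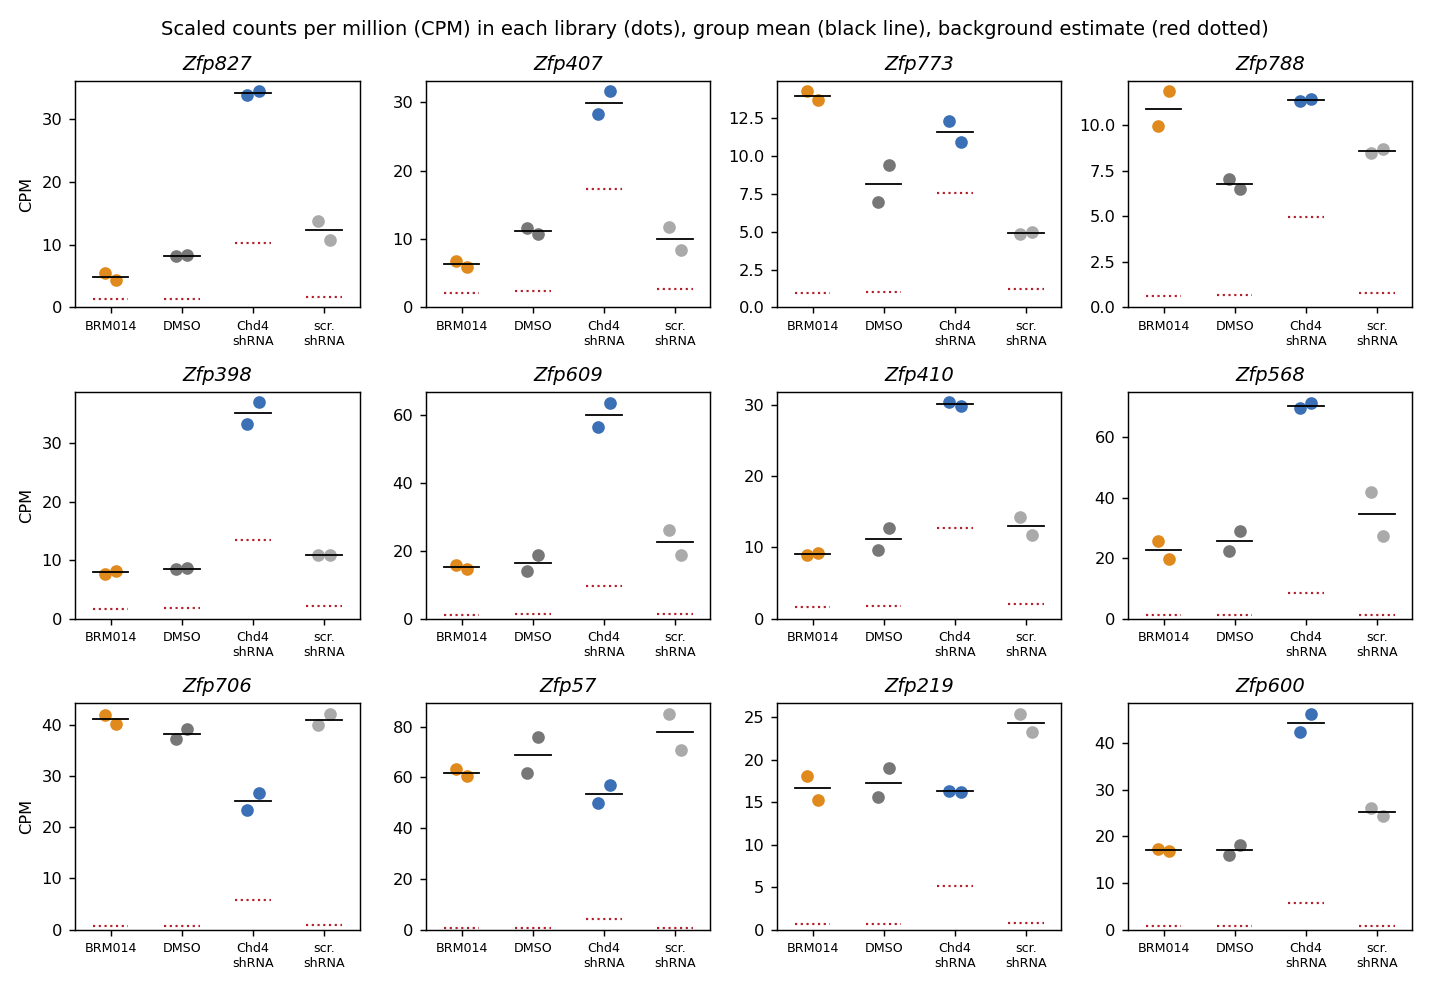
Scaled counts (CPM, vertical axis) of 12 expressed Zfp genes in each of the 8 libraries, grouped as BRM014, DMSO, Chd4 shRNA and scrambled shRNA. Dots are libraries, black lines are group means and red dotted lines are the background estimated from receptor genes. Zfp827 and Zfp407 were lower with BRM014 than with DMSO and higher with the Chd4 shRNA than with the scrambled shRNA, while Zfp706 and Zfp57 were lower with the Chd4 shRNA.

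The libraries labelled Chd4 shRNA were compared with those labelled scrambled shRNA to ask which genes depend on NuRD. On the deposited counts 88 members were higher and 5 lower, where 39.5% of all tested genes were higher and 17.2% lower. With the background subtracted 48 members were higher and 9 lower, where 29.9% and 16.9% of tested genes were. All of those 48 were also called higher on the deposited counts. The 88 include Zfp386, Zfp940 and Zfp26, which passed the limit on counts only through the Chd4 shRNA libraries. Among the other 134 members 85 were higher, and 47 with the background subtracted. The members' median log2 fold change was 0.58 on the deposited counts, against 0.21 over all tested genes, and 0.33 with the background subtracted, against 0.13.

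The split by background bears on these counts. Among the 70 members at least 10-fold above background, 30 were higher and 5 lower, where 22.2% and 24.2% of the tested genes above that limit were. Their median was 0.33 on the log2 scale, against -0.02 for those genes. Among the other 67 members, 58 were higher and 0 lower by edgeR (61 higher and 0 lower at an unadjusted p under 0.05), where 81.1% and 0.427% of the tested genes under the limit were. Their median was 0.82, as was that of those genes, so these members' count lies near the background. DESeq2 gave 81 higher and 5 lower over all members, with a median of 0.59, against 0.21 over all tested genes. The share of all tested genes called by DESeq2 was not counted. Across members the fold change followed exonic length, with a Spearman rho of 0.63 on the deposited counts and 0.38 with the background subtracted (137 genes, which share libraries and are not independent). Over all tested genes the same values were 0.56 and 0.34. Of the 46 longest members, 7217 to 15839 bases, 44 were higher on the deposited counts and 28 with the background subtracted. Of the 46 shortest, 1275 to 4346 bases, 18 and 11 were. Calls among all tested genes were not counted by length. Tested genes under 10-fold above background, of which 81.1% were higher, had a median exonic length of 8001 bases. Those at least 10-fold above it, of which 22.2% were higher, had a median of 3075 bases. A gene's length and its background share rise together, and their parts in the fold change cannot be told apart from these counts.

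**Figure D2:**
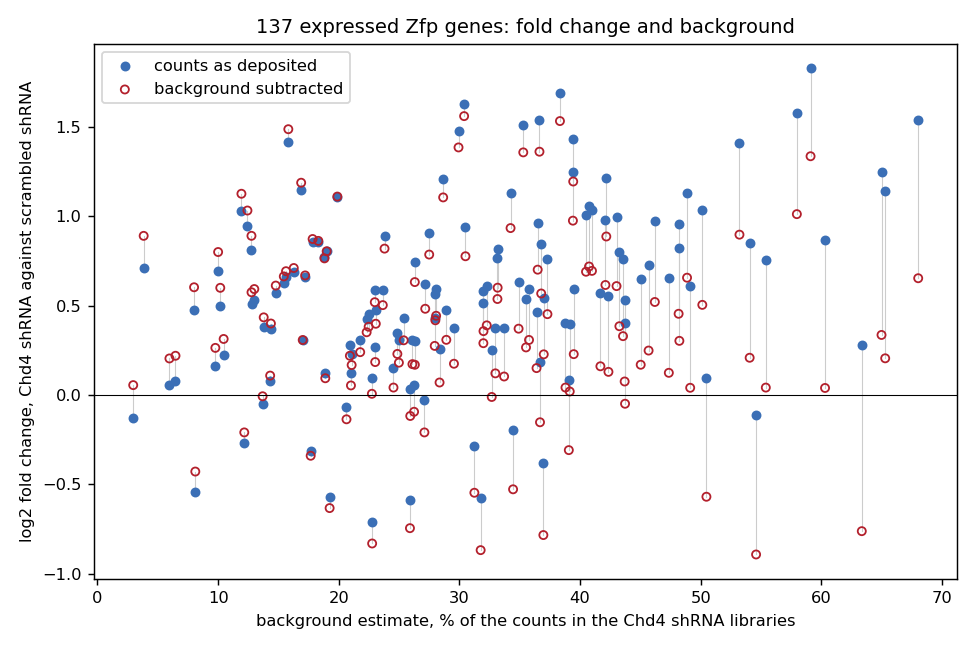
Log2 fold change of Chd4 shRNA against scrambled shRNA (vertical axis) by the share of each member's counts that background accounts for in the Chd4 shRNA libraries (horizontal axis, percent), for 137 genes. Filled points are the deposited counts, open points the same genes with the background subtracted, joined by grey lines. Subtraction moved genes with large shares most, for example Zfp26 at 68.0%, which had 1.54 before and 0.65 after it.

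Zfp398, Zfp738, Zfp821, Zfp827 and Zfp407 rose by 2.78-fold (Zfp827) to 3.55-fold (Zfp738) on the deposited counts, and by 2.02-fold (Zfp407) to 2.95-fold (Zfp821) with the background subtracted. Zfp398 (chr6:47835661-47873537, plus strand) had 33.3 and 37.0 CPM with the Chd4 shRNA, against 10.9 and 10.8 CPM with the scrambled shRNA. Its log2 fold change was 1.69 ± 0.16 (SE, adjusted p = 1.22e-09, edgeR) and 1.53 ± 0.19 with the background subtracted. Zfp738, a gene of the chromosome 13 cluster, had 26.2 and 32.5 CPM with the Chd4 shRNA and 8.84 and 7.67 CPM with the scrambled shRNA, which is 1.83 ± 0.17 before and 1.33 ± 0.26 after subtraction. Background made up 59.1% of its counts with the Chd4 shRNA. Zfp821 had 24.7 and 25.4 CPM with the Chd4 shRNA and 9.42 and 6.77 CPM with the scrambled shRNA, a log2 fold change of 1.63 ± 0.17 before and 1.56 ± 0.22 after subtraction. Zfp609, a transcription regulator that works with the Integrator complex, had 56.2 and 63.5 CPM with the Chd4 shRNA and 26.2 and 18.7 CPM with the scrambled shRNA. Its log2 fold change was 1.41 ± 0.17 before and 1.49 ± 0.18 after subtraction, and background made up 15.8% of its counts. Zfp318, which in B cells allows IgD to be made, rose by 1.54 on the log2 scale and by 1.36 after subtraction. In each of these genes both Chd4 shRNA libraries were above both scrambled shRNA libraries, and each call held without any 1 library.

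Zfp407 and Zfp827 were higher with the Chd4 shRNA, while both were lower with BRM014. Zfp827 had 33.9 and 34.5 CPM with the Chd4 shRNA and 13.8 and 10.8 CPM with the scrambled shRNA, a log2 fold change of 1.47 ± 0.16 (SE, adjusted p = 2.2e-08, edgeR; 1.38 ± 0.20 with the background subtracted). Zfp407 had 28.3 and 31.7 CPM with the Chd4 shRNA and 11.7 and 8.35 CPM with the scrambled shRNA, 1.58 ± 0.17 before and 1.01 ± 0.26 after subtraction. Background made up 58.0% of the counts of Zfp407 in the Chd4 shRNA libraries and 29.9% of those of Zfp827. Zfp26 showed the limit of the deposited counts: its log2 fold change of 1.54 ± 0.19 was 0.65 ± 0.34 after subtraction, no longer called (adjusted p = 0.12, edgeR).

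The 5 falls were Zfp706, Zfp57, Zfp219, Zfp553 and Zfp692, and all were also called with the background subtracted. Zfp706, a small protein that mouse embryonic stem cells need to leave self-renewal, had 23.4 and 26.7 CPM with the Chd4 shRNA, against 39.8 and 42.1 CPM with the scrambled shRNA. Its log2 fold change was -0.71 ± 0.15 (SE, adjusted p = 0.000252, edgeR) and -0.83 ± 0.16 after subtraction. Zfp219 had 16.3 and 16.2 CPM with the Chd4 shRNA and 25.4 and 23.2 CPM with the scrambled shRNA, -0.58 ± 0.17 before and -0.87 ± 0.19 after subtraction. Its row overlaps Tmem253 on the other strand over 4137 bases. Zfp57, Zfp553 and Zfp692 fell by 0.54, 0.57 and 0.59 on the log2 scale. All 3 lost their call without Chd4 shRNA library 1 (adjusted p = 0.0562, 0.13 and 0.0559, edgeR), Zfp553 and Zfp692 without scrambled shRNA library 1 (0.0855 and 0.0761), and Zfp692 without Chd4 shRNA library 4 (0.0557). Scaled on the ERCC spike-in totals, none of these 5 genes was called and 0 members were lower (log2 fold changes between -0.10 and 0.08). After subtraction Zfp775, Zfp931, Zfp459 and Zfp277 were also called lower.

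By their known roles, the 3 members linked to imprints or to an imprinted gene went in different directions with the Chd4 shRNA. Zfp57, which holds DNA methylation at imprinting control regions, had 49.9 and 57.0 CPM with the Chd4 shRNA, against 85.0 and 70.6 CPM with the scrambled shRNA, and fell. Zfp568, which represses a placental transcript of Igf2, had 69.6 and 71.4 CPM with the Chd4 shRNA and 41.8 and 27.3 CPM with the scrambled shRNA, and rose by 1.03 ± 0.18 (SE) on the log2 scale and by 1.13 ± 0.19 after subtraction. Zfp445, which acts with Zfp57 at imprints, rose by 0.57 ± 0.16 on the deposited counts only (adjusted p = 0.0618 after subtraction and 0.11 without scrambled shRNA library 3, edgeR). With BRM014 none of these 3 was called: their log2 fold changes were -0.15 in Zfp57, -0.51 in Zfp445 (adjusted p = 0.0575, edgeR) and -0.19 in Zfp568, and at an unadjusted p under 0.05 Zfp445 was lower.

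Among 7 members linked to NuRD, to ZMYND8 or to Chd4 itself, 6 rose and Zfp219 fell on the deposited counts with the Chd4 shRNA. On those counts 39.5% of all tested genes were higher and 17.2% lower. With the background subtracted 4 rose and Zfp219 fell, where 29.9% and 16.9% of all tested genes did. Of the 7, 4 were under 10-fold above background, where 81.1% of tested genes were higher. Zfp410, an activator that acts mainly on Chd4, had 30.4 and 29.8 CPM with the Chd4 shRNA, against 14.2 and 11.7 CPM with the scrambled shRNA, a log2 fold change of 1.21 ± 0.17 before and 0.89 ± 0.21 after subtraction. Zfp592, Zfp687 and Zfp532 encode a zinc finger module that binds ZMYND8. They rose by 1.01, 0.58 and 0.76 on the log2 scale, and Zfp532 was not called after subtraction (0.33 ± 0.22, adjusted p = 0.23, edgeR). Zfp687 lost its call without Chd4 shRNA library 1 (adjusted p = 0.0609, edgeR). Zfp281, which works with NuRD at the Nanog gene, rose by 0.59 ± 0.19, which was lost without Chd4 shRNA library 1 (adjusted p = 0.131, edgeR), without scrambled shRNA library 3 (0.0816) and after subtraction (0.0983). Only Zfp827 of this list changed with BRM014. All 3 members linked to G9a or CoREST rose with the Chd4 shRNA, 2 of them under 10-fold above background, where 81.1% of tested genes were higher: Zfp644 by 0.94 and Zfp217 by 0.86 on the log2 scale, both also after subtraction, and Zfp462 by 0.80, which was not called after it (0.38 ± 0.23, adjusted p = 0.184, edgeR).

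Of 12 genes listed for retroelement silencing 8 were members, and Zfp738, Zfp600 and Zfp979 of these rose with the Chd4 shRNA on both sets of counts. That is near the 39.5% of all tested genes that were higher on the deposited counts. With the background subtracted 29.9% of all tested genes were higher. Zfp459 had 6.46 and 8.95 CPM with the Chd4 shRNA and 9.65 and 7.0 CPM with the scrambled shRNA, so its groups overlapped. It was called lower only after subtraction (-0.89 ± 0.31, adjusted p = 0.0231, edgeR), where background made up 54.6% of its counts. Zfp932, Zfp961, Zfp989 and Zfp992 were not called, with log2 fold changes of 0.08 to 0.31. Of 10 stem cell and transcription regulators 7 were members, and 4 of them rose, where 39.5% of all tested genes were higher: Zfp148 by 0.96, Zfp335 by 0.82, Zfp131 by 0.61 and Zfp143 by 0.43 on the log2 scale. On the other strand, Zfp335 overlaps Pcif1 over 2573 bases, which had 2.91 times its counts, and Zfp143 overlaps AA474408 over 109 bases, which had 0.784 times its counts. Only Zfp148, a binder of GC-rich promoters, was still called after subtraction (0.70 ± 0.21). Zfp143 was lost without Chd4 shRNA library 4 (adjusted p = 0.346, edgeR) and without either scrambled shRNA library (0.0578 and 0.172), and Zfp131 without scrambled shRNA library 3 (0.0701). Zfp277 had a log2 fold change of 0.10 on the deposited counts and was called lower after subtraction (-0.57 ± 0.18, adjusted p = 0.0125, edgeR), with background at 50.5% of its counts. No gene of these 2 lists was called with BRM014 (edgeR and DESeq2; at an unadjusted p under 0.05, 1 and 3 genes were higher).

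Members that act on RNA or protein showed 5 rises and the fall of Zfp706 with the Chd4 shRNA, of 9 tested, where 39.5% of all tested genes were higher and 17.2% lower. Zfp326, a subunit of a complex that couples transcription and splicing, rose by 1.51 ± 0.18 (SE) on the log2 scale and Zfp638, a nuclear matrix protein that silences unintegrated retroviral DNA, by 0.81 ± 0.15. Zfp106, an RNA-binding protein, rose by 0.50 ± 0.15, which was lost without Chd4 shRNA library 4 (adjusted p = 0.0993, edgeR) or scrambled shRNA library 3 (0.1), and Zfp91, a ubiquitin ligase, by 0.91 ± 0.16. These 4 were also called after subtraction, where 29.9% of all tested genes were higher. Zfp346, which binds double-stranded RNA, was not (0.47 before, 0.31 after). Its call on the deposited counts was lost without Chd4 shRNA library 4 (adjusted p = 0.215, edgeR) or scrambled shRNA library 1 (0.0893). Zfp598, the ubiquitin ligase of collided ribosomes, had 29.7 and 35.5 CPM with the Chd4 shRNA and 32.5 and 34.9 CPM with the scrambled shRNA, with a log2 fold change of -0.05 ± 0.17. Zfp622 was also not called (0.06 ± 0.15). Zfp330, a nucleolar protein, had 36.8 CPM in both Chd4 shRNA libraries and 45.2 and 46.2 CPM with the scrambled shRNA, with a log2 fold change of -0.31 ± 0.14 (adjusted p = 0.0669, edgeR). None of the 9 was called with BRM014 by edgeR or DESeq2 (1 higher at an unadjusted p under 0.05).

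**Figure D3:**
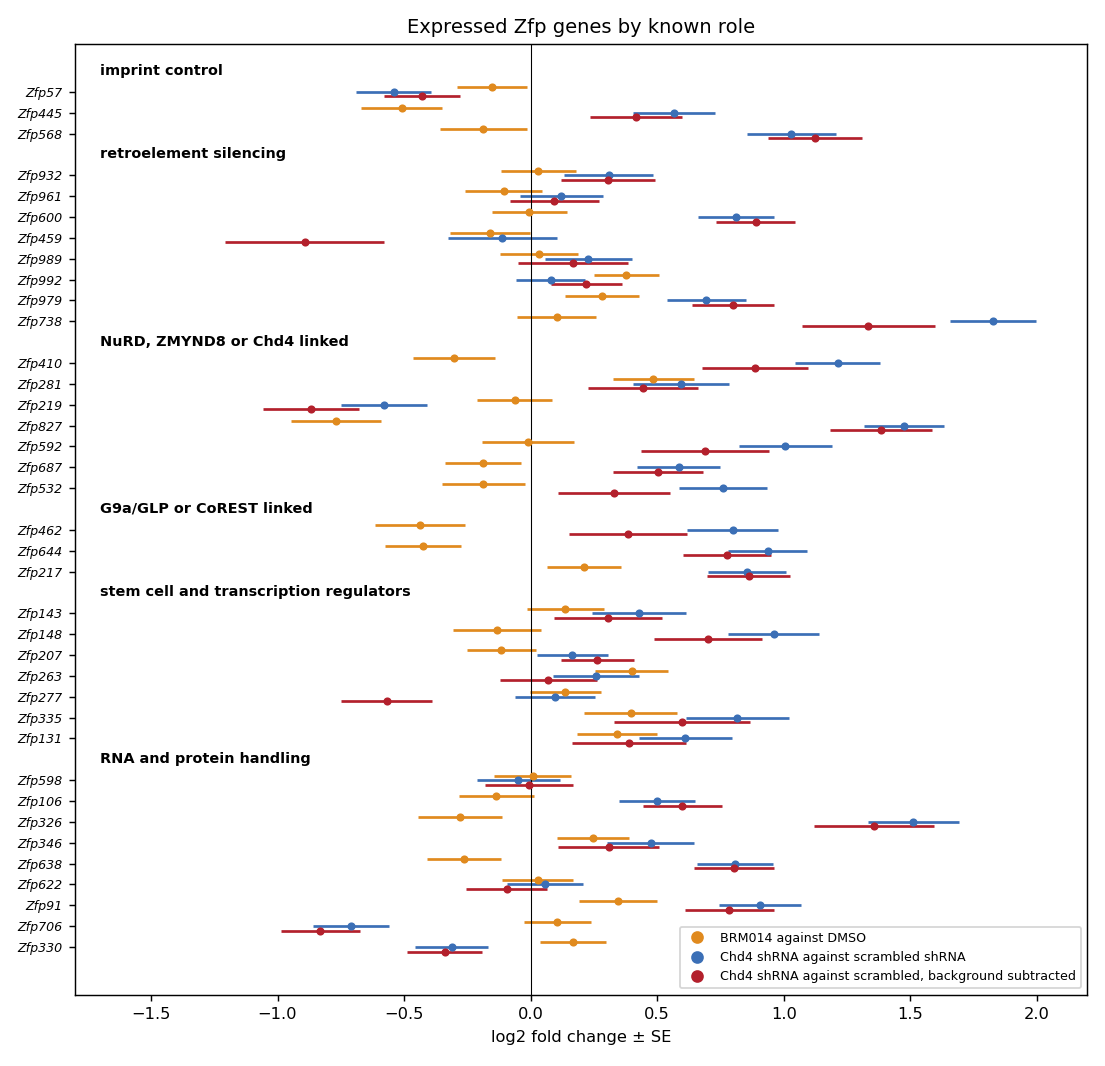
Log2 fold changes with SE (horizontal axis) of the members in the 6 role lists (rows), for BRM014 against DMSO (orange) and Chd4 shRNA against scrambled shRNA on deposited counts (blue) and with the background subtracted (red). Zfp57, Zfp219 and Zfp706 lie left of 0 with the Chd4 shRNA in both, and Zfp459 and Zfp277 move left once the background is subtracted.

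In the genome, 39 members fell into 8 clusters of at least 3 members with neighbouring starts at most 500 kb apart. Chromosome 7 held 25 members and chromosome 4 held 19. The chromosome 4 cluster (chr4:145510759-147809788 in mm10) held 16 members among its 17 rows named Zfp, over 2299 kb. In mice this region is known for KRAB zinc finger genes that silence endogenous retroviruses. With the Chd4 shRNA 10 of the 16 rose and 0 fell by edgeR, both on the deposited counts and with the background subtracted, and with BRM014 none was called. All 16 were at least 10-fold above background, where 22.2% of tested genes were higher and 24.2% lower on the deposited counts. With the background subtracted, 1408 of the 6225 tested genes above that limit were higher and 1342 lower. The median log2 fold change of the 16 was 0.52 with the Chd4 shRNA and 0.60 after subtraction. Background made up 2.96% to 24.9% of their counts with the Chd4 shRNA.

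In each of the 10 genes that rose, both Chd4 shRNA libraries were above both scrambled shRNA libraries. Zfp600, whose promoter is printed above, had 42.3 and 46.2 CPM with the Chd4 shRNA, against 26.1 and 24.4 CPM with the scrambled shRNA, a log2 fold change of 0.81 ± 0.15 (SE, adjusted p = 4.72e-05, edgeR; 0.89 ± 0.16 after subtraction). Zfp981 had 26.5 and 31.8 CPM with the Chd4 shRNA and 13.3 and 16.9 CPM with the scrambled shRNA, the largest rise of the cluster at 0.94 ± 0.16. Zfp979 had 45.9 and 48.2 CPM with the Chd4 shRNA and 29.1 CPM in both scrambled shRNA libraries, and rose by 0.69 ± 0.16. Zfp980 had 33.4 and 37.1 CPM with the Chd4 shRNA and 26.2 and 22.7 CPM with the scrambled shRNA, and rose by 0.53 ± 0.16. Zfp978 and Zfp534 rose by 0.71 and 0.69. Zfp990, Zfp980, Zfp988, Zfp985 and Zfp984 lost their calls without Chd4 shRNA library 4 (adjusted p = 0.202, 0.0625, 0.0802, 0.07 and 0.0799, edgeR), and Zfp990, Zfp980 and Zfp984 also without scrambled shRNA library 3 (0.163, 0.0566 and 0.0569). The other 5 calls held in each such fit.

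Of the 4 genes of the cluster with the highest level per kb, Zfp978 rose and the other 3 were not called. Zfp992 had 73.2 and 88.0 CPM with the Chd4 shRNA and 75.4 and 77.1 CPM with the scrambled shRNA, and Zfp991 had 53.1 and 58.8 against 54.2 and 53.4 CPM. Zfp993 had 45.6 and 53.0 CPM with the Chd4 shRNA and 51.9 and 55.9 CPM with the scrambled shRNA. The groups overlapped in all 3, and their log2 fold changes were 0.08, 0.06 and -0.13. With BRM014 Zfp993 had 73.0 and 77.3 CPM, against 59.6 and 59.0 CPM with DMSO, and Zfp992 had 104 and 113, against 83.2 and 83.3 CPM; neither was called (adjusted p = 0.126 and 0.0836, edgeR). The 9 promoter windows compared in this cluster were alike, but none belongs to Zfp978, Zfp991, Zfp992 or Zfp993. Exons, where reads are counted, were not compared. If the exons of these copies are as alike, reads may be shared or dropped between them. How reads with several alignments were counted is not given in the sources used here, so the values of single genes of the cluster are uncertain.

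**Figure D4:**
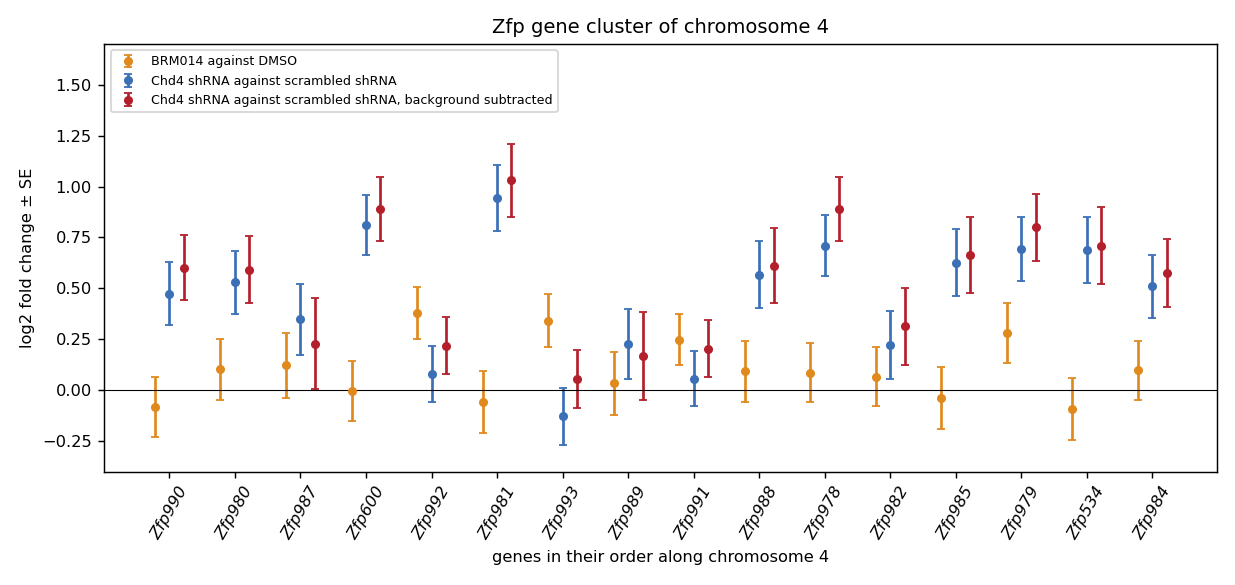
Log2 fold changes with SE (vertical axis) of the 16 members of the chromosome 4 cluster, in their order along the chromosome. Orange is BRM014 against DMSO, blue is Chd4 shRNA against scrambled shRNA and red is the same with the background subtracted. The blue and red points of 10 genes lie above 0.4, while Zfp992, Zfp993 and Zfp991 lie near 0 in blue.

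The other 7 clusters were smaller and mixed. Of all tested genes 39.5% were higher and 17.2% lower with the Chd4 shRNA, and 29.9% and 16.9% with the background subtracted. With BRM014 2.02% were higher and 3.61% lower. In the group of 4 on chromosome 7 that holds Zfp568, all 4 members rose with the Chd4 shRNA and 2 did after subtraction. One of these 2 is Zfp940, at 1.43 on the log2 scale before and 1.19 after subtraction, which the Chd4 shRNA libraries carried over the limit on counts. In the group of 4 on chromosome 6, Zfp398 rose by 1.69 and Zfp212 by 0.48 with the Chd4 shRNA. Zfp777 at 0.27 and Zfp746 at 0.38 were not called. After subtraction only Zfp398 of this group was called. On chromosome 8, Zfp866 and Zfp869 rose with the Chd4 shRNA on both sets of counts and Zfp930 was not called. In the same cluster Zfp930 was higher and Zfp866 lower with BRM014. On chromosome 7, Zfp553 fell and Zfp646 rose with the Chd4 shRNA, and both calls stood after subtraction.

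Some members were called in both comparisons on the deposited counts. Zfp407, Zfp827, Zfp866, Zfp704 and Zfp41 were lower with BRM014 and higher with the Chd4 shRNA, which is 3.65% of members and 1.62% of all tested genes. Another 5 members, Zfp773, Zfp68, Zfp367, Zfp397 and Zfp637, were higher in both, which is 3.65% of members and 0.704% of tested genes. By edgeR 0 members were higher with BRM014 and lower with the Chd4 shRNA, or lower in both, where 0.33% and 0.852% of tested genes were. Zfp704, Zfp68, Zfp367, Zfp397 and Zfp637 lost their call with the Chd4 shRNA when its library 4 was left out (adjusted p = 0.214, 0.0608, 0.0961, 0.0688 and 0.192, edgeR). With the background subtracted, only Zfp407 and Zfp827 were called in both comparisons. The comparisons share no control library, though they differ in treatment, time and background. The difference of both effects (that of the Chd4 shRNA minus that of BRM014) was tested in the same fit: 64 members were higher and 4 lower, where 32.7% of tested genes were higher and 13.0% lower, and 43 and 8 with the background subtracted, where 23.3% and 13.0% were.

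**Figure D5:**
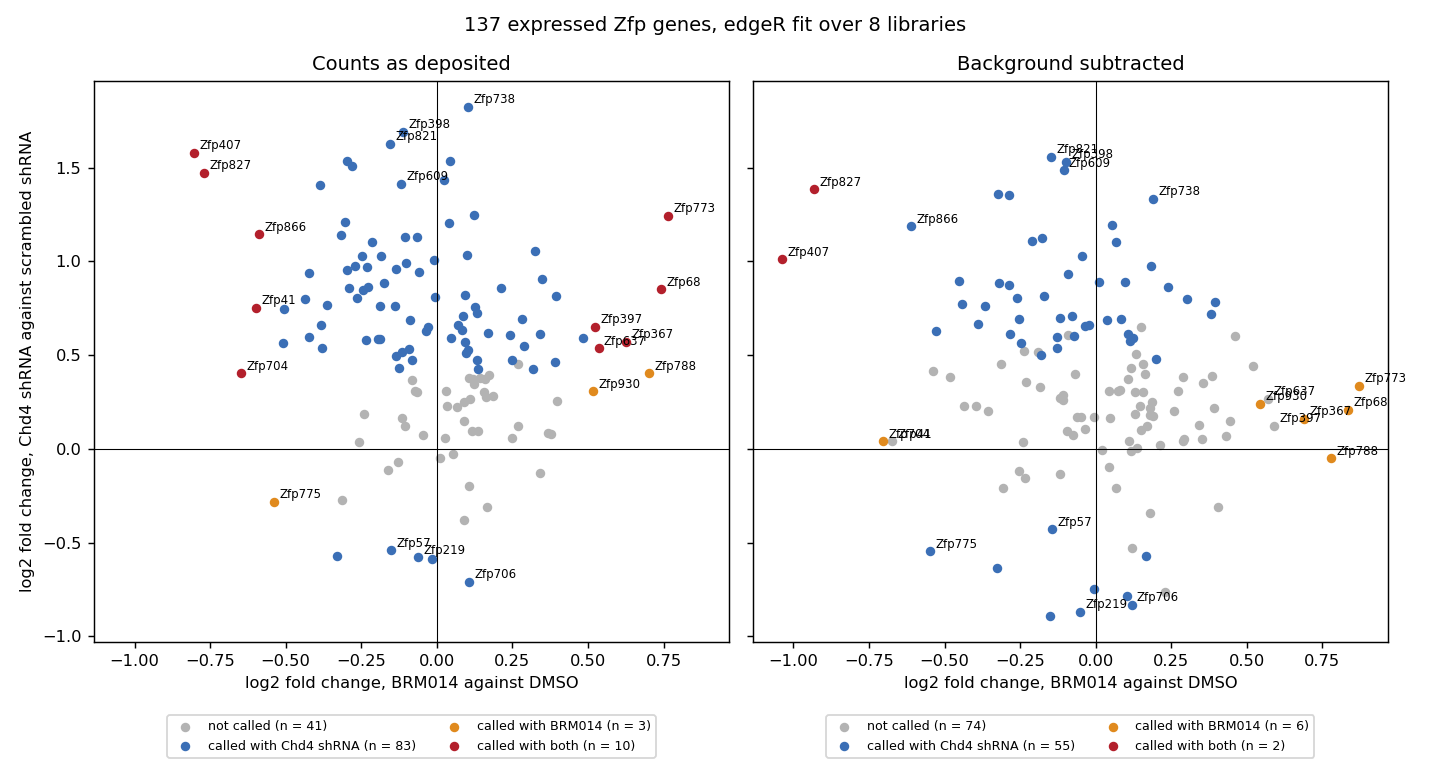
Log2 fold change of BRM014 against DMSO (horizontal axis) and of Chd4 shRNA against scrambled shRNA (vertical axis) for 137 members, on deposited counts (left) and with the background subtracted (right). Colours give the comparisons in which a gene was called. Zfp407 and Zfp827 lie at the upper left in both panels, and Zfp773, Zfp68 and Zfp367 move towards 0 on the vertical axis after subtraction.

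Members were set beside the genes of the pathway that KRAB zinc finger proteins use. Of 26 genes listed for TRIM28 silencing 22 were tested, and 12 rose and 3 fell with the Chd4 shRNA, 10 and 3 with the background subtracted. Of all tested genes 39.5% rose and 17.2% fell, and 29.9% and 16.9% with the background subtracted. Trim28 itself fell (log2 fold change -0.97 ± 0.14, SE, and -0.80 after subtraction), and Setdb1 rose by 0.55 ± 0.15 and by 0.52 after it. Only Atrx changed with BRM014, at -0.75 ± 0.15 (adjusted p = 0.00186, edgeR). Among other zinc finger names, 11 of 15 Zbtb genes and 5 of 8 Zscan and Zkscan genes rose with the Chd4 shRNA, and 5 and 2 after subtraction, and none fell in either (edgeR; 11 and 6 higher and 0 lower at an unadjusted p under 0.05). Of these genes, 13 of the 15 and 5 of the 8 were under 10-fold above background, where 81.1% of tested genes were higher.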

How the data were processed

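Nascent RNA was read in 8 libraries. The authors deposited raw read counts for each gene of mm10. Per the submitters' processing notes, Trim Galore 0.6.4, STAR 2.7.1a, featureCounts and edgeR 3.32.1 were used. The strand counted and the treatment of reads with several alignments are not given in the sources used here. The 40 chromatin immunoprecipitation samples were not used here. Columns numbered 4 (Chd4 shRNA) and 3 (scrambled shRNA) match no number in the titles and were placed by their group name.

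All 8 libraries were fitted together with edgeR 4.0.16 (R 4.3.3, group means, quasi-likelihood F test) on 8801 genes with a mean count of at least 100, with Benjamini-Hochberg adjustment over all of them and calls at an adjusted p under 0.05. SEs come from the F statistic. TMM library sizes used 8017 genes at least 10-fold above background, measured on the 5330.3 kb of exon of 1434 olfactory and vomeronasal receptor genes. For the subtracted counts that background times exonic length was removed per library, rounded, with a floor at 0. Members and lists were chosen with earlier results of these data known. Named genes are, in each comparison and direction, up to 10 called members with the smallest p whose treated libraries lie on 1 side of both controls, and the members of the 6 role lists; chromosome 4 cluster genes and those of other clusters are named as parts of them. Replicate numbers were not used to pair the libraries in the main fit. The deviations of BRM014 1 and DMSO 1 correlated at -0.25 over 8017 genes. With 2 libraries per group this value cannot show whether libraries were prepared in pairs. The alternatives were other scalings (ERCC totals, TMM among all genes), DESeq2 1.42.0, other filters, subtraction, each comparison's 4 libraries alone, a replicate block and each library left out; where that leaves 1 library in a group, it is assumed to vary like the others. The fits were tested on simulated data. Depth limits precision: a member had at least 100 counts on average, and the Chd4 shRNA libraries were shallower. Some members had fewer counts there than their mean, such as Zfp459 with 40 and 54 (mean 108.625). Others had more, such as Zfp398 with 206 and 223 (mean 143.625). All 137 members' symbols matched the gene name table given, and 136 matched RefSeq. Figures were drawn with matplotlib.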

Additional observations from a re-analysis of the deposited data

Results flagged for a closer look

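In 68 members the effect of the Chd4 shRNA and that of BRM014 differed by the test of the difference itself (edgeR quasi-likelihood test, Chd4 shRNA minus BRM014, log2 scale). Of these, 14 are given here by the rule for named genes: the 10 higher ones with the smallest p and the 4 lower ones. Zfp407 differed by 2.38 ± 0.24 (SE) and Zfp827 by 2.24 ± 0.24, and both moved in opposite directions in the 2 comparisons. Zfp866, lower with BRM014 and higher with the Chd4 shRNA, differed by 1.73. Zfp398 differed by 1.80, Zfp318 by 1.83, Zfp821 by 1.78, Zfp738 by 1.72, Zfp326 by 1.79, Zfp950 by 1.79 and Zfp410 by 1.52, and none of these 7 was called with BRM014. With the background subtracted all 10 were still called, at 1.15 (Zfp738) to 2.32 (Zfp827). Zfp950 overlaps Grk5 on the other strand over 42129 bases.

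The 4 members with a lower value were Zfp706 at -0.82, Zfp692 at -0.57, Zfp330 at -0.48 and Zfp993 at -0.47. Zfp706 was called whichever library was left out. Zfp330 lost its call whichever of 7 libraries was left out (adjusted p = 0.0633 to 0.146, edgeR; DMSO library 2 was the exception), Zfp692 without any of 6 (0.079 to 0.166) and Zfp993 without BRM014 library 1 or 2, Chd4 shRNA library 1 or scrambled shRNA library 3 (0.0712 to 0.216). Zfp993 was also not called after subtraction (-0.30, adjusted p = 0.245, edgeR).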

How the results depend on the processing

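The share of all tested genes called was counted only on the deposited counts and with the background subtracted. For the other settings the counts of members below stand without that share. With BRM014, 7 members were higher and 6 lower. The counts were 0 and 0 on ERCC totals, 4 and 3 with no filter beyond a count above 0, 2 and 2 in a refit on the 8017 genes at least 10-fold above background alone (70 members), 5 and 3 by DESeq2, 5 and 3 with the background subtracted, 8 and 10 on the 4 libraries alone. With the replicate block on those 4 libraries they were 4 and 4, and with crossed replicate numbers, chosen after seeing the data, 15 and 16. With 1 library left out they were 2 to 17 higher and 0 to 7 lower, and with the background subtracted as well (chosen after seeing the data) 0 to 5 and 0 to 4. Leaving out DMSO library 2 gave the 17. The Chd4 shRNA columns share only the number 1 with the scrambled shRNA columns, so no replicate block could be fitted there.

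With the Chd4 shRNA, 88 were higher and 5 lower. The counts were 27 and 5 in that refit on 8017 genes (30 and 5 of the same 70 members were called in the fit of all tested genes), 48 and 9 with the background subtracted, 72 and 9 with TMM among all genes and 112 and 0 on ERCC totals. The ERCC scale moved the median log2 fold change of all genes to 0.80, where it was 0.21, and TMM among all genes moved it to 0.03. The members' median, 0.58 before, moved to 1.17 and 0.41. With 1 library left out 67 to 86 were higher and 2 to 5 lower, and with the background subtracted as well 29 to 53 higher and 4 to 8 lower; the 29 came without scrambled shRNA library 3 and 32 without Chd4 shRNA library 4. Of the 88, 57 were called whichever library was left out, and 41 of these 57 also with the background subtracted. On ERCC totals Zfp57, Zfp219 and Zfp553 turned to 0.077, 0.0089 and 0.055, and after subtraction Zfp277 turned to -0.57.

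For the difference, 64 were higher and 4 lower. The counts were 18 and 1 in the refit on 8017 genes (19 and 4 of the 70 in the fit of all tested genes), 53 and 8 with TMM among all genes, 65 and 0 on ERCC totals, 56 and 1 by DESeq2, and 43 and 8 with the background subtracted, and 1 to 7 were lower with 1 library left out. On ERCC totals Zfp993, Zfp330 and Zfp692 turned to 0.13, 0.12 and 0.00467. The cause of these changes was not tested.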
